A study of Mus musculus with 5 samples.

Results

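The expression of 10 genes of VEGF and angiopoietin signaling was followed, chosen by name from the 55573 genes in the count tables. They are the 3 VEGF ligand genes Vegfa, Vegfb and Vegfc, the 3 receptor and co-receptor genes Flt1, Kdr and Nrp1, the 2 angiopoietin genes Angpt1 and Angpt2, and the 2 Tie receptor genes Tek and Tie1. The rule that chose them uses names and no measured value, though earlier results of these data were known when they were chosen. The RNA came from the right hemisphere of C57BL/6 females that had been grafted at 7 to 8 weeks of age with GL261, a mouse glioma line that here carried luciferase and mKate2, in the right caudate nucleus-putamen. In both groups the tumor was therefore present, and sessions were given on days 21 and 24 with the hemisphere taken 24 h after the last. The 2 UMBO mice received low-intensity pulsed ultrasound together with microbubbles in the blood, which opens the blood-brain barrier for some hours, and the 3 vehicle mice received InVivoPure pH 6.5 dilution buffer. Another UMBO mouse of the study's design was not analysed here. GL261 tumors carry many mutations, and each library mixes tumor, brain, vessel and immune cells, so that it cannot show which cells made a transcript. Bulk RNA also cannot tell fewer cells of a type from less RNA per cell.

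VEGF ligands and angiopoietins are the main secreted signals that tell blood vessels to grow, leak or rest. VEGF-A, made by tumor cells, astrocytes and other cells that lack oxygen, binds Flt1 and Kdr on endothelial cells, where Kdr carries most of the signal and Flt1 holds ligand with little kinase activity. Angiopoietin-1 from perivascular cells activates the receptor Tek and keeps vessels tight, while angiopoietin-2, released by activated endothelium, competes with it at the same receptor. In the brain these signals also act on the blood-brain barrier, which UMBO opens by mechanical means.

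Total counts lay between 59736771 and 86164159 per library, and 23592 genes had enough counts to be compared. All 10 genes were among them. UMBO replicate 2 stood apart from the other libraries on the first principal component, which held 78.7% of the variance (133.7 against -68.4 to 17.0). Its neuron marker sum was the lowest and its proliferation marker sum the highest of the 5 libraries, so values without it stand beside the results that it moves. No 2 libraries of the same group agreed within sampling noise. The defining endothelial markers Pecam1, Cdh5, Cldn5 and Erg had counts in every library, so vessel RNA was present throughout.

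Kdr and Flt1, on the same chromosome, encode the receptors that share VEGF-A, and the ratios of Kdr to Flt1 and of Vegfa to Kdr, described further on, did not overlap between the groups. The 250 bases before the RefSeq start of each of these genes are printed for that reason, 5′ to 3′ on the gene's own strand (minus strand for each, GRCm38.p6). Capitals mark GCGTG and ACGTG, the cores bound by hypoxia-inducible factors, and CCGGAA, a core bound by ETS factors, on either strand. The letters ACGTG also occur in the E box, which other factors bind. The window of Vegfa is at chr17:46032378-46032627, that of Kdr at chr5:75978456-75978705 and that of Flt1 at chr5:147726012-147726261.
Vegfa: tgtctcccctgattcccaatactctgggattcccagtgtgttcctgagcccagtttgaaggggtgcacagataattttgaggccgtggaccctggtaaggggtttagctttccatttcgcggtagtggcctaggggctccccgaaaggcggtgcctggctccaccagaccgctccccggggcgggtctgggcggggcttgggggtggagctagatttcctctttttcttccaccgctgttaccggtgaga
Kdr: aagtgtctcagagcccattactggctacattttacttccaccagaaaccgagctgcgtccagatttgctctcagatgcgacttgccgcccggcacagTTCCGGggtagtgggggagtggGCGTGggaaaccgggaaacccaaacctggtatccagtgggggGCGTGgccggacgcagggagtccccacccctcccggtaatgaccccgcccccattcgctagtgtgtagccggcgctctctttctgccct
Flt1: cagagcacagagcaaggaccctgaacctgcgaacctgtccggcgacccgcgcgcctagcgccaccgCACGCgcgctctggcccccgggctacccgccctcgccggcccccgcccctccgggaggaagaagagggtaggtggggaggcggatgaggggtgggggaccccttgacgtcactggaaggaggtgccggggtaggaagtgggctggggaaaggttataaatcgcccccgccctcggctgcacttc
The Kdr window held GCGTG at 2 places, 131 and 89 bases before the start, and CCGGAA at 1 place. The Flt1 window held GCGTG once, on the other strand, and TATAAA 31 bases before the start. The Vegfa window printed held neither hypoxia core, whereas a second RefSeq start of Vegfa, inside the gene, had both ACGTG and GCGTG before it. RefSeq windows were found for 8 of the 10 genes, 9 windows in all, and none for Angpt1 and Angpt2. ACGTG or GCGTG stood in 5 of the 9 windows, against 38.6% of 32851 windows of all genes, and the GC box GGGCGG in 7 of the 9 against 32.7%. CCGGAA was found in 1 of the 9, that of Kdr, against 12.03% of all windows, and TATAAA in 1, that of Flt1, against 12.4%. The windows of Tek and Tie1 held none of these motifs. A match describes the letters of the window and does not show that a factor binds there.

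Levels between genes were compared as CPM, the TMM-scaled counts of a gene in 1000000 counts of its library, per kilobase of exon (CPM per kb), with the lengths of GENCODE M21 exons. Vegfb was the most abundant of the 10 transcripts, at a mean over the 5 libraries of 34.0 CPM per kb. Vegfa followed at 15.9 and Flt1 at 4.96, and the ranges over libraries did not overlap at either of these steps. Tek at 2.86, Nrp1 at 2.56, Tie1 at 2.47, Kdr at 1.90, Angpt1 at 1.73, Angpt2 at 1.33 and Vegfc at 1.23 CPM per kb came next. From Flt1 downward the range of each gene overlapped that of its neighbor in the order. Flt1 was nevertheless above Tek in all 5 libraries and Tie1 above Kdr in all 5. The decoy-type receptor Flt1 was thus the highest of the 5 receptor and co-receptor transcripts in this tissue, and Kdr the lowest by mean.

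Between UMBO and vehicle, none of the 10 genes passed the threshold of 0.05 in the quasi-likelihood test of edgeR, adjusted by Benjamini-Hochberg over the 23592 genes, of which 0.0% passed. None had an unadjusted p under 0.05 either, against 7.37% of all genes tested. DESeq2 called none of the 10 after adjustment, against 40 of 40435 genes. Before adjustment it called 1, Angpt2, against 2738 of the 40435, so that count is no result about the 10 genes. The fold change was above 0 for 7 genes and below 0 for 3. Their median log2 fold change was 0.13, against 0.012 over all genes. The UMBO libraries both exceeded all vehicle libraries for 3 of the 10 genes (Kdr, Nrp1 and Tie1), against 11.5% of all genes, and were both below all vehicle libraries for 1 (Vegfa), against 11.4%. The other 6 genes overlapped. All changes depend somewhat on scaling, since scaling by library size alone shifted the all-gene median by 0.11 on the log2 scale. Relative to the all-gene median the direction of each of the 10 genes was the same under both scalings. Vegfb stood at -0.0085 relative to that median with library size alone, and its 0.0028 in the main scaling was also below the median of 0.012.

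**Figure D1:**
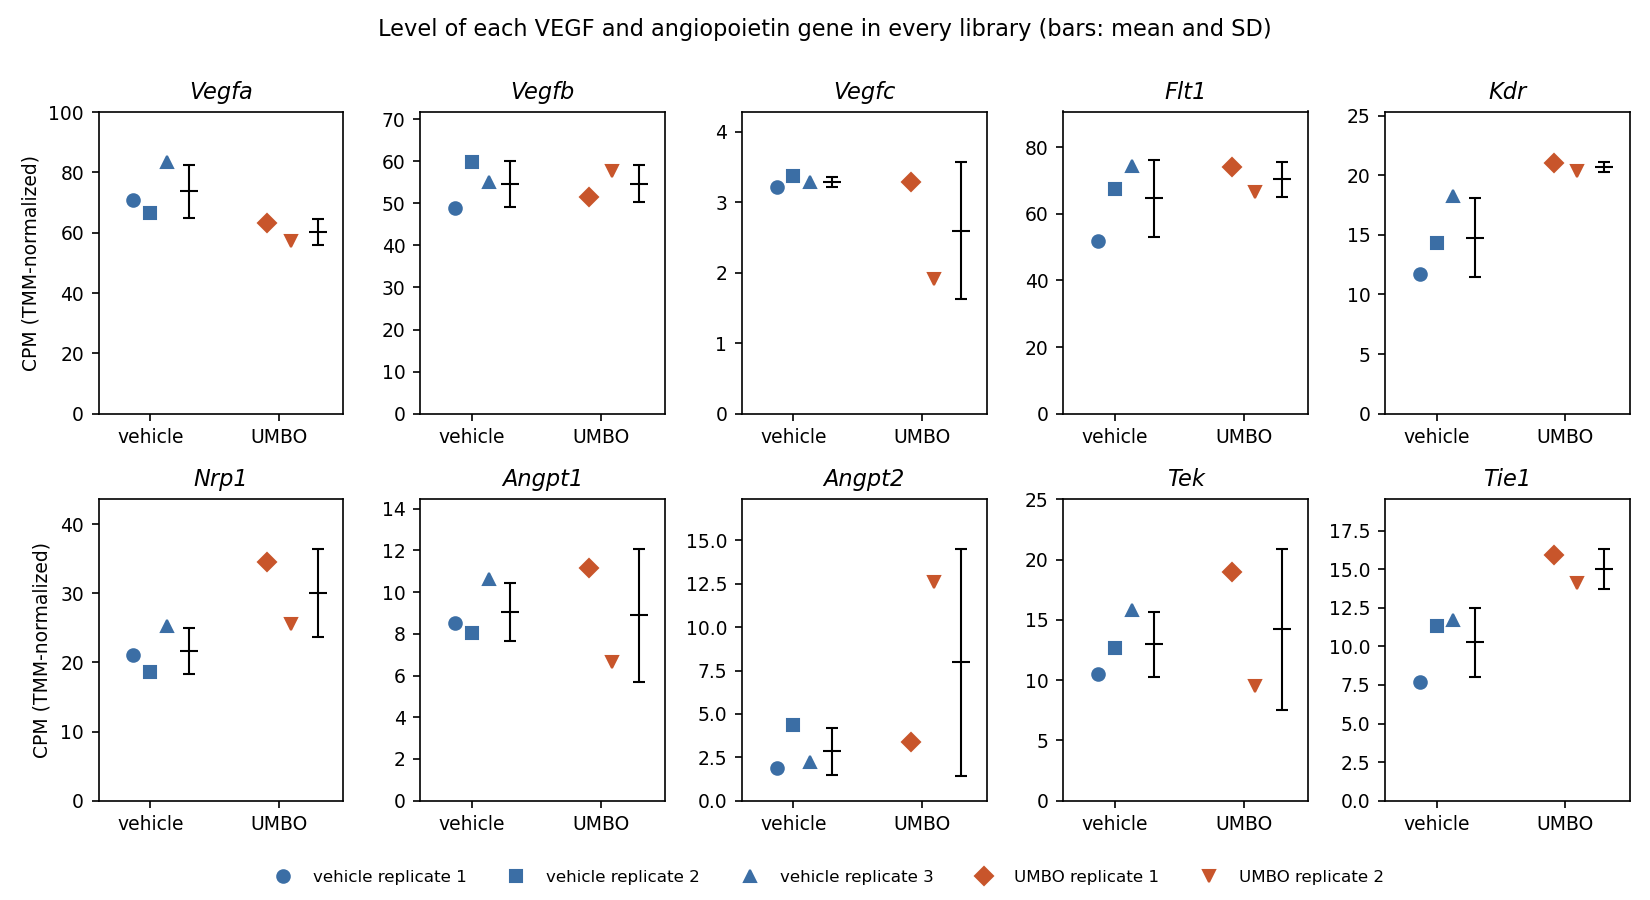
TMM-normalized CPM of each of the 10 genes, with 1 point for each of the 3 vehicle and 2 UMBO libraries and bars for the group mean and SD; each vertical axis starts at 0. The UMBO points of Kdr, Nrp1 and Tie1 lie above the vehicle points and those of Vegfa below them, while Angpt2 has 1 high UMBO library at 12.6 CPM.

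Vegfa encodes VEGF-A, the chief ligand of Kdr (ENSMUSG00000023951, chromosome 17, 46016993 to 46032369, minus strand, GRCm38, the build of all positions below). Its level was 70.9, 66.7 and 83.5 CPM in vehicle replicates 1 to 3, and 63.3 and 57.1 CPM in UMBO replicates 1 and 2. Both UMBO libraries were lower than every vehicle library. The means were 73.7 ± 8.76 CPM (SD, n = 3) and 60.2 ± 4.39 CPM (SD, n = 2), a log2 fold change of -0.29 ± 0.18 (SE) with an adjusted p of 0.497 from edgeR. The 95% interval reached from -0.73 to 0.15, from 0.603 to 1.11 times the vehicle level. Counts per gene do not separate the splice forms of Vegfa, which differ in how tightly they bind matrix.

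Vegfb encodes VEGF-B, a ligand of Flt1 and Nrp1 that is best known in heart and fat metabolism (ENSMUSG00000024962, chromosome 19, 6982473 to 6987651, minus strand). It stood at 48.8, 59.9 and 55.0 CPM with vehicle and 51.6 and 57.8 CPM with UMBO. The UMBO values fell inside the vehicle range. Its fold change on the log2 scale was 0.0028 with a 95% interval from -0.41 to 0.42, the narrowest interval of the 10 genes. Vegfc encodes VEGF-C, the main growth factor of lymphatic vessels (ENSMUSG00000031520, chromosome 8, 54077606 to 54187096, plus strand). Its vehicle libraries were close together at 3.22, 3.37 and 3.28 CPM, and UMBO replicate 1 lay among them at 3.29 CPM. UMBO replicate 2 alone was low, at 1.91 CPM, a count of 125. The log2 fold change of Vegfc was -0.34 ± 0.33 (SE) over all libraries, -0.000091 without UMBO replicate 2 and -0.81 without UMBO replicate 1. With the ligands summed, both UMBO libraries (118 and 117 CPM) were below the vehicle libraries (123 to 142 CPM), a sum to which Vegfa and Vegfb gave nearly all counts.

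Kdr encodes the receptor through which VEGF-A drives endothelial growth and permeability (ENSMUSG00000062960, chromosome 5, 75932827 to 75978458, minus strand). It measured 11.7, 14.3 and 18.3 CPM with vehicle, and 21.0 and 20.4 CPM with UMBO. The UMBO libraries were close to each other and above all 3 vehicle libraries, among which the highest was 1.56 times the lowest. The mean went from 14.8 ± 3.30 (SD, n = 3) to 20.7 ± 0.427 CPM (SD, n = 2), a log2 fold change of 0.49 ± 0.23 (SE; 95% interval -0.087 to 1.06; unadjusted p = 0.0834; adjusted p = 0.497, edgeR). Leaving out single libraries gave values from 0.34 to 0.67.

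Nrp1 encodes neuropilin-1, a co-receptor that presents VEGF-A to Kdr and also binds semaphorins (ENSMUSG00000025810, chromosome 8, 128358604 to 128503363, plus strand). Besides endothelium it is made by neurons and microglia. The vehicle libraries held 21.1, 18.6 and 25.2 CPM, and the UMBO libraries 34.6 and 25.5 CPM. UMBO replicate 2 cleared vehicle replicate 3 by a narrow margin. With the size factors of DESeq2 the groups overlapped for this gene. The log2 fold change was 0.47 ± 0.22 (SE; unadjusted p = 0.0772; adjusted p = 0.497, edgeR), and 0.21 without UMBO replicate 1. The microRNA gene Mir1903 shares 80 exonic bases with Nrp1, and its count was 0 in every library.

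Flt1 encodes the receptor that binds VEGF-A most tightly, and a shorter secreted form acts as a trap (ENSMUSG00000029648, chromosome 5, 147561604 to 147726011, minus strand). Its level was 51.9, 67.6 and 74.3 CPM with vehicle and 74.1 and 66.6 CPM with UMBO. The groups overlapped, and vehicle replicate 1 was the lowest of the 5 libraries. Flt1 had a log2 fold change of 0.12 (95% interval -0.38 to 0.63), which leaves room for a change of up to 1.55 times. It was -0.013 without vehicle replicate 1. Gene counts do not separate the membrane form from the secreted form.

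Angpt2 encodes angiopoietin-2, which activated endothelium and tumor vessels release (ENSMUSG00000031465, chromosome 8, 18690263 to 18741562, minus strand). It gave the largest fold change of the 10 genes and rested on 1 library. The vehicle libraries held 1.90, 4.38 and 2.26 CPM. UMBO replicate 1, at 3.36 CPM, lay inside that range, while UMBO replicate 2 reached 12.6 CPM with a count of 825. The groups overlapped. Angpt2 had a log2 fold change of 1.49 ± 0.63 (SE; 95% interval -0.058 to 3.03; unadjusted p = 0.0567; adjusted p = 0.497, edgeR). It was 0.24 without UMBO replicate 2 and 2.12 without UMBO replicate 1. Several marker sums, like the Angpt2 level, had their most extreme value in UMBO replicate 2. All 10 proliferation markers were higher at an unadjusted p under 0.05, against 5.3% of all genes. Their sum was 36.1 to 109 CPM in the vehicle libraries, 116 CPM in UMBO replicate 1 and 465 CPM in UMBO replicate 2. Of 8 markers of monocytes and macrophages, 2 were higher at that threshold, against the same 5.3%. The sum of the 8 was 8.13 to 54.2 CPM with vehicle, 30.1 CPM in UMBO replicate 1 and 162 CPM in UMBO replicate 2. No marker of either list was at 0 in any library. The neuron marker sum was 5244 to 8018 CPM with vehicle, 5424 CPM in UMBO replicate 1 and 2694 CPM in UMBO replicate 2. The part of these in the Angpt2 value was not tested.

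Angpt1 encodes angiopoietin-1, the ligand that activates Tek (ENSMUSG00000022309, chromosome 15, 42424723 to 42676977, minus strand). It stood at 8.51, 8.03 and 10.6 CPM with vehicle and 11.1 and 6.63 CPM with UMBO. The UMBO libraries lay on either side of the vehicle range, UMBO replicate 1 above it and UMBO replicate 2 below it. On the log2 scale the fold change was -0.028 (95% interval -0.76 to 0.71), and it was 0.30 without UMBO replicate 2 and -0.48 without UMBO replicate 1. The antisense gene Gm17473 shares 737 exonic bases with Angpt1, with 24 to 35 counts of its own, and reads there may not be told apart because the strand setting of the counting is not given in the sources used here.

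Tek encodes the angiopoietin receptor (ENSMUSG00000006386, chromosome 4, 94739289 to 94874976, plus strand). It measured 10.5, 12.6 and 15.8 CPM with vehicle, 18.9 CPM in UMBO replicate 1 and 9.50 CPM in UMBO replicate 2. As for Angpt1, one UMBO library was the highest of the 5 and the other the lowest. Tek had a log2 fold change of 0.13 over all libraries (95% interval -0.72 to 0.99), 0.55 without UMBO replicate 2 and -0.48 without UMBO replicate 1. Tie1 encodes a partner of Tek long regarded as an orphan receptor (ENSMUSG00000033191, chromosome 4, 118471191 to 118490061, minus strand). The vehicle libraries held 7.70, 11.3 and 11.7 CPM and the UMBO libraries 15.9 and 14.1 CPM. Both UMBO libraries were above every vehicle library. The log2 fold change of Tie1 was 0.55 ± 0.25 (SE; 95% interval -0.065 to 1.16; unadjusted p = 0.0711; adjusted p = 0.497, edgeR), and leaving out single libraries gave 0.38 to 0.66.

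**Figure D2:**
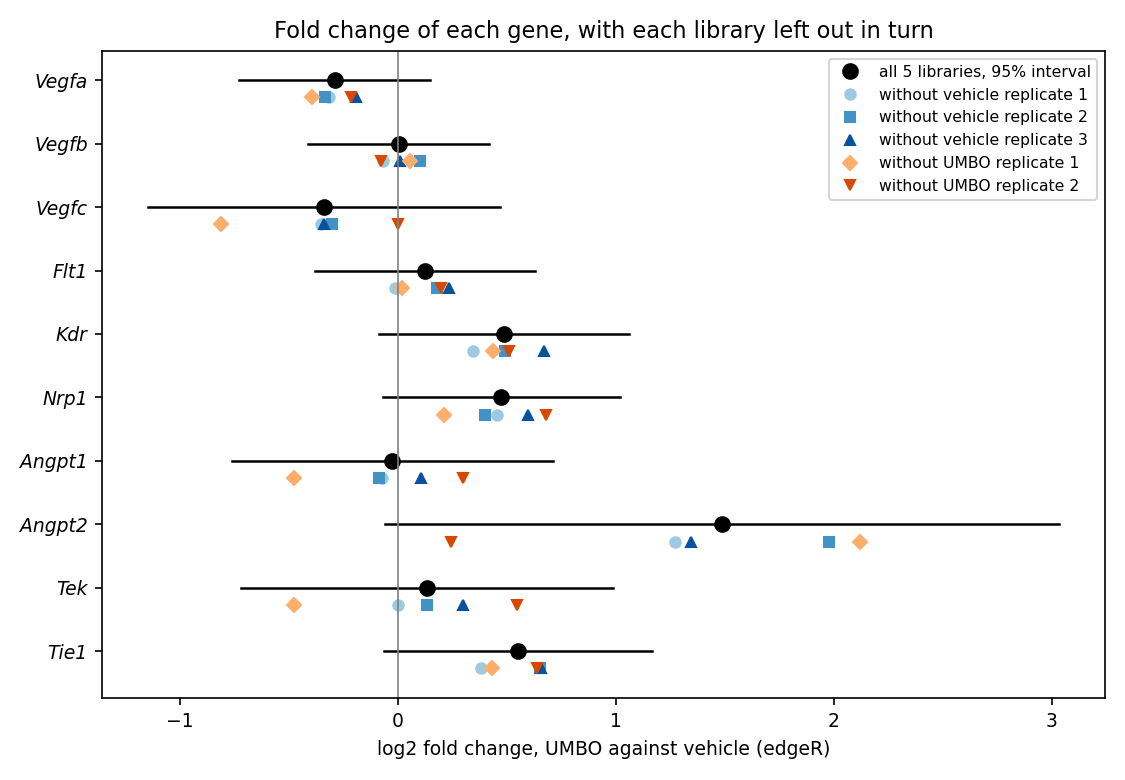
The log2 fold change of each gene in UMBO against vehicle from edgeR, with its 95% interval over all 5 libraries (black) and the value with each library left out (colored points beneath). All 10 intervals include 0; the values of Kdr, Nrp1 and Tie1 stay above 0 and those of Vegfa below it whichever library is left out, while Angpt2 moves between 0.24 and 2.12 and Tek between -0.48 and 0.55.

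Ratios of CPM within a library do not depend on how libraries are scaled, and were not corrected for gene length. With 3 against 2 libraries an exact permutation test has 10 groupings and cannot give a p below 0.1, so none of the ratios could reach 0.05. The ratio of Vegfa to Kdr was 6.06, 4.66 and 4.57 with vehicle, and 3.02 and 2.80 with UMBO. Ligand relative to receptor was thus lower in both UMBO libraries, a log2 difference of -0.80 (2-sided exact permutation p = 0.1, adjusted over 4 ratios p = 0.2). In both UMBO libraries Vegfa was below and Kdr above every vehicle library. The separation of this ratio follows from those levels and is no further result. Kdr to Flt1, the signaling receptor against the decoy-type receptor, was 0.226, 0.212 and 0.246 with vehicle and 0.283 and 0.306 with UMBO. This ratio was higher in both UMBO libraries, by 0.37 on the log2 scale (2-sided exact permutation p = 0.1, adjusted p = 0.2). Leaving out single libraries gave values from 0.32 to 0.43.

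The ratio of Angpt2 to Angpt1, the opposed ligands of Tek, was 0.223, 0.545 and 0.212 with vehicle, and 0.301 and 1.90 with UMBO. Per kilobase too, Angpt2 exceeded Angpt1 in UMBO replicate 2 and in no other library. The log2 difference between the groups was 1.35 (2-sided exact permutation p = 0.3, adjusted p = 0.3), and it was 0.026 without that library. Tek to Tie1 was 1.36, 1.12 and 1.35 with vehicle and 1.19 and 0.675 with UMBO. The groups overlapped, with a log2 difference of -0.50 (2-sided exact permutation p = 0.2, adjusted p = 0.267) that shrank to -0.095 without UMBO replicate 2.

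**Figure D3:**
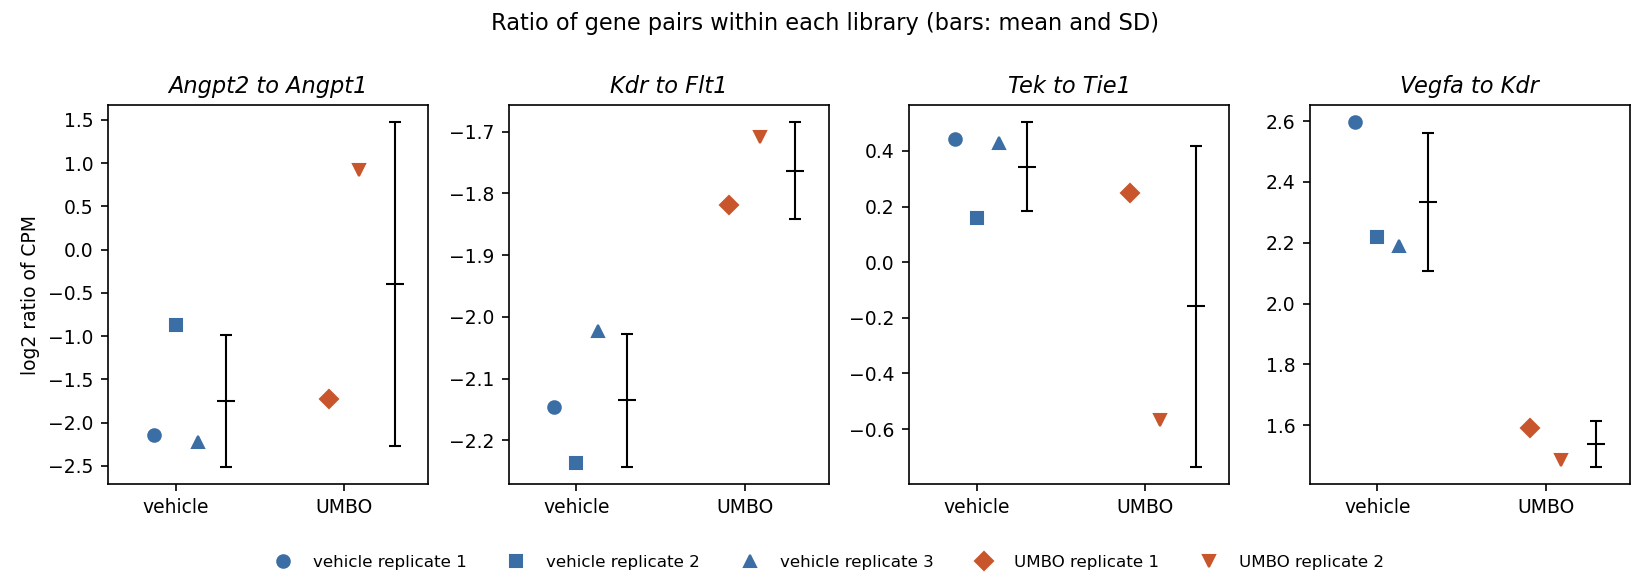
Log2 ratio of CPM for 4 pairs of genes, with 1 point per library and bars for the mean and SD of the 3 vehicle and 2 UMBO libraries; the vertical axes differ. The groups are apart for Kdr to Flt1 and for Vegfa to Kdr and overlap for the other pairs, where UMBO replicate 2 lies away from the rest.

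Kdr, Flt1, Tek and Tie1 are made mainly by endothelial cells, and the markers of these cells were therefore measured beside them. Of 15 endothelial markers, 7 were higher with UMBO at an unadjusted p under 0.05, against 5.3% of all genes, and 0 were lower, against 2.06%. None passed the adjusted threshold. Their median log2 fold change was 0.58, and 0.41 without UMBO replicate 2. The sum of the 15 markers was 207 to 287 CPM with vehicle and 359 to 401 CPM with UMBO, and none was at 0 in any library. Cldn5, a tight junction protein of brain endothelium, had a log2 fold change of 1.15 ± 0.32 (SE), Pecam1 of 0.85 ± 0.27 (0.53 without UMBO replicate 2) and Cdh5, the endothelial cadherin, of 0.58 ± 0.21. Erg, an endothelial transcription factor, had 0.21 ± 0.28 and overlapped between the groups. The list did not move as one. The barrier transporters Slco1a4 (-0.095) and Abcb1a (-0.047), the junction protein Ocln (0.014) and the transcription factor Sox17 (0.093), named after their values were seen, each had their lowest level in UMBO replicate 2. So did Tek, while Kdr and Tie1 did not. The mean log2 CPM of the markers was 3.32, 3.80 and 3.70 with vehicle and 4.11 and 4.24 with UMBO.

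Each gene was then set against that mean in the same library. The mean itself was 0.57 higher with UMBO, so that a gene with equal CPM in both groups falls by about as much on this scale, and the median difference over all genes was -0.56. Relative to the endothelial markers, Kdr differed between UMBO and vehicle by -0.059 on the log2 scale, Nrp1 by -0.10 and Tie1 by 0.0022, and all 3 overlapped. These are the genes whose UMBO libraries had both been higher in CPM. For Tie1, UMBO replicate 1 (-0.11) lay above every vehicle library and UMBO replicate 2 (-0.43) below every one. None of the 10 genes was higher in both UMBO libraries than in all vehicle libraries on this scale, against 1.35% of all genes. Both UMBO libraries lay below every vehicle library for Vegfa (log2 difference -0.85), Vegfb (-0.56), Vegfc (-0.96) and Flt1 (-0.43), each with a 2-sided exact permutation p of 0.1, the smallest possible, and 0.25 adjusted over the 10 genes. These 4 of 10 compare with 51.5% of all genes, so the count is no result about the 10 genes. Vegfc was -0.50 without UMBO replicate 2 and -1.41 without UMBO replicate 1. Flt1 was the only one of the 5 receptor and co-receptor genes whose groups did not overlap on this scale. Its difference of -0.43 was nevertheless smaller in size than the all-gene median of -0.56, and than the -0.50 of Tek, which overlapped. The values of Flt1 relative to the markers were 2.37, 2.28 and 2.52 with vehicle and 2.10 and 1.82 with UMBO. Angpt1 (-0.63), Tek (-0.50) and Angpt2 (0.72) overlapped between the groups, and were -0.19, 0.064 and -0.17 without UMBO replicate 2. The marker mean is shared by all 10 values, so these differences are not independent of each other. With only 1 UMBO library left, that library alone has to clear the vehicle range. A count of non-overlapping genes in that case cannot be set beside the 4 given above, and the share of all genes was not computed for it.

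**Figure D4:**
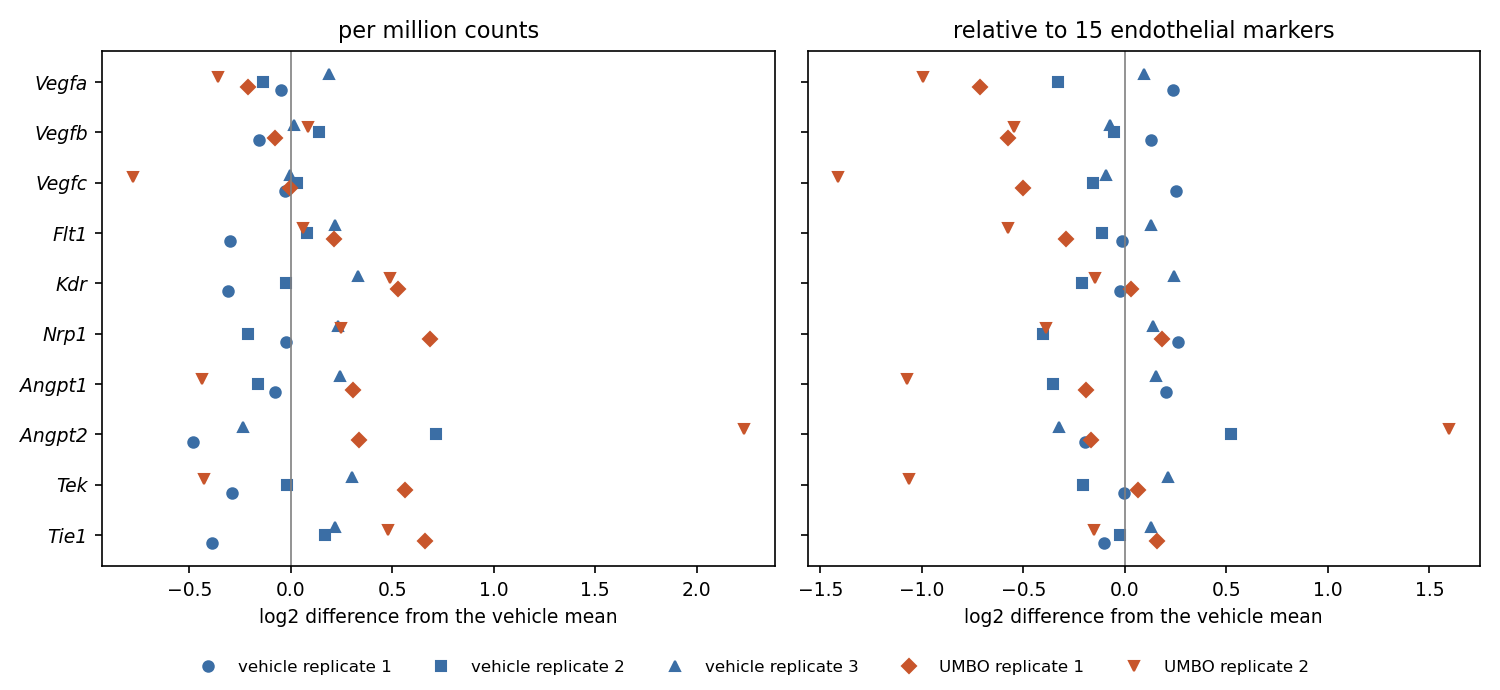
Log2 difference of every library from the vehicle mean for each gene, in CPM (left) and relative to the mean of 15 endothelial markers (right); points are libraries. On the right Kdr and Nrp1 of both UMBO libraries lie among the vehicle libraries. Tie1 lies to the right of them in UMBO replicate 1 and to the left in UMBO replicate 2. Vegfa, Vegfb, Vegfc and Flt1 of both UMBO libraries lie to the left of the vehicle libraries, as do 51.5% of all genes.

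Other ligands and receptors of the family were near the 10 genes in size of change. Of Pgf, Vegfd, Flt4 and Nrp2 none had an unadjusted p under 0.05. All 4 had fold changes above 0, against 50.9% of all genes, with a median log2 value of 0.20. Pgf, the placental growth factor, which binds Flt1, was 2.46, 4.24 and 3.31 CPM with vehicle and 3.54 and 8.35 CPM with UMBO. Like Angpt2 it was high in UMBO replicate 2 alone, and its log2 fold change of 0.83 was 0.088 without it. Vegfd, a ligand of Flt4, had 0.21, Flt4, the receptor of lymphatic vessels, 0.19 and the co-receptor Nrp2 0.10, or 0.34, 0.16 and 0.39 without UMBO replicate 2.

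Downstream of Kdr, 3 of 26 genes were higher and 1 lower at an unadjusted p under 0.05, against 5.3% and 2.06% of all genes, with a median log2 fold change of 0.054. The higher genes included Mapkapk2 (0.78 ± 0.27, SE), the kinase below p38, and its substrate Hspb1 (1.63 ± 0.56), a small heat shock protein of the actin skeleton. Egr3, an immediate early gene that neurons also express, was lower in both UMBO libraries (-1.18 ± 0.44). Without UMBO replicate 2 these values were 0.36 for Mapkapk2, 0.46 for Hspb1 and -0.75 for Egr3. Of 13 partners of Tek and Tie1 and their signaling genes, 1 was higher, the integrin chain Itgb1 (0.77 ± 0.27, and 0.39 without UMBO replicate 2), and none lower. Itgb1 stood at 78.4, 110.3 and 90.9 CPM with vehicle and 122 and 196 CPM with UMBO. Itga5, another integrin chain, had a log2 fold change of 1.05 that was -0.0033 without UMBO replicate 2, and the adaptor Shc1 had 0.57, or 0.22 without it.

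Nrp1 also serves semaphorin signaling, which repels axons and vessels. Of 13 semaphorin 3 ligands and plexin partners, listed for the neuropilins and not for Nrp1 alone, 10 had fold changes below 0. Over all genes 50.9% were above 0. Of the 13, 1 was lower at an unadjusted p under 0.05, against 2.06% of all genes. The median log2 fold change was -0.33. The ligand Sema3f was 16.3, 14.0 and 21.7 CPM with vehicle and 10.5 and 9.73 CPM with UMBO. Both UMBO libraries were below every vehicle library, and the log2 fold change of -0.78 ± 0.25 (SE) was -0.73 without UMBO replicate 2 and -0.86 without UMBO replicate 1. Sema3a, a ligand of Nrp1, had -0.96 and Plxnd1, a receptor of semaphorins on vessels, had -0.61, both also lower in both UMBO libraries. Without UMBO replicate 2 they were -0.56 and -0.28. The median of the list was -0.014 without UMBO replicate 2. Semaphorins and plexins are made by neurons too, and the neuron marker sum was lowest in that library, as given above. The part of the neuron RNA in these values was not tested.

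Of 19 genes of endothelial tip cells and Notch signaling, 3 were higher at an unadjusted p under 0.05 and 0 lower, against 5.3% and 2.06% of all genes, and the median log2 fold change was 0.29. Aplnr, the apelin receptor of growing vessels, was 0.388, 0.460 and 0.791 CPM with vehicle and 1.75 and 1.68 CPM with UMBO. Its UMBO libraries were close together and above the vehicle libraries, with a log2 fold change of 1.65 ± 0.41 (SE) that was 1.68 without UMBO replicate 2 and 1.58 without UMBO replicate 1. Its ligand gene Apln was 25.8, 33.3 and 39.0 CPM with vehicle and 25.7 and 39.1 CPM with UMBO, and was named after the values were seen. Pdgfb, with which endothelium recruits pericytes, had 0.47 ± 0.18 and the Notch ligand Jag1 had 0.69 ± 0.26, which was 0.42 without UMBO replicate 2. Dll4, the Notch ligand of tip cells, named after its values were seen, had 0.29 and overlapped.

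Hypoxia-inducible factors raise Vegfa transcription when oxygen is low. Of 10 genes of the factors and their regulators none had an unadjusted p under 0.05, and 8 had fold changes below 0. Over all genes 50.9% had fold changes above 0. The median of the 10 was -0.23, or -0.060 without UMBO replicate 2. The oxygen sensor Egln1 had a log2 fold change of -0.25 and was lower in both UMBO libraries, and the factor subunits Arnt and Arnt2 had -0.30 and -0.61. Without UMBO replicate 2 the 3 values were -0.13, -0.13 and -0.061. Of 12 target genes other than Vegfa, 1 was higher at an unadjusted p under 0.05, against 5.3% of all genes. Of these 12, 6 were above and 6 below 0, with a median of 0.010, which was -0.059 without UMBO replicate 2. The gene under that threshold was Ddit4, a stress-induced inhibitor of growth signaling. Its level was 29.2, 40.9 and 27.1 CPM with vehicle and 48.1 and 67.2 CPM with UMBO (log2 fold change 0.83 ± 0.25, SE). The glucose transporter Slc2a1, which brain endothelium also expresses, had 0.42 and was higher in both UMBO libraries. Ldha, a glycolysis enzyme, had 0.66 over all libraries and 0.082 without UMBO replicate 2.

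The genes whose pattern over the 5 libraries was most like that of the gene with the smallest p in each role were found by the root mean square distance between centred log2 CPM profiles. For Vegfa they were the growth factor Fgf7 (0.016), the laminin chain Lamb3 (0.022) and Gm49284 (0.036), against a median distance of 0.38 over all genes. Nrp1 had Apaf1 (0.048), of the apoptosome, Gm14857 and E130215H24Rik nearest to it. Tie1 was nearest to Plod2 (0.051), a collagen-modifying enzyme, the transporter Slco2b1 (0.054) and Wnt11 (0.056). Angpt2 was nearest to Mthfd2 (0.020), a mitochondrial folate enzyme, Gm6394 (0.048) and the cyclin Ccnd3 (0.051). Mthfd2 stood at 7.76, 17.9 and 9.43 CPM with vehicle and 13.8 and 53.0 CPM with UMBO, and thus had the same 1 high library as Angpt2. With 5 libraries and 23592 genes, near matches are found for any pattern.

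Cell type markers gave the setting of these values. Markers of pericytes and smooth muscle, which are among the sources of Angpt1, had 0 of 11 genes at an unadjusted p under 0.05 and a median log2 fold change of 0.25, or 0.036 without UMBO replicate 2. The higher genes at that threshold were 4 of 7 for microglia, 3 of 6 for fibroblasts and meninges, 1 of 8 for astrocytes, 1 of the 3 tested for lymphatic endothelium and 1 of the 3 tested for neutrophils, and no gene of these lists was lower. Over all genes 5.3% were higher at that threshold. Neuron (8 genes), oligodendrocyte (7), T cell (6), choroid plexus (7) and red blood cell (5) markers had 0 at that threshold. The median was 0.65 for microglia, 0.63 for fibroblasts and meninges, 0.10 for astrocytes, 0.95 for lymphatic endothelium, 1.87 for neutrophils, -0.41 for neurons, -0.037 for oligodendrocytes, 0.83 for T cells, -0.48 for choroid plexus and 0.62 for red blood cells. Without UMBO replicate 2 the sign turned for neutrophils (-0.14), T cells (-1.003) and oligodendrocytes (0.025), and the median was 0.43 for lymphatic endothelium, -0.19 for neurons, -0.087 for choroid plexus and 0.25 for astrocytes. Ccl21a of the lymphatic list and Ly6g of the neutrophil list were at 0 in some libraries. The part of any of these cell types in the levels of the 10 genes was not tested.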

How the data were processed

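RNA from the right hemisphere of 5 mice was analysed, 3 vehicle and 2 UMBO, each library from a separate mouse, with groups and replicate numbers from the labels. Per the labels and methods, mRNA was extracted with a Maxwell kit and prepared with a SMARTer kit, and the authors aligned reads to GRCm38 by STAR 2.7.2a. The deposited values are raw counts per gene, not normalized; the annotation release and strand setting are not given in the sources used here. Symbols, positions and exon lengths came from GENCODE M21 on the same build, and promoter windows from RefSeq (GRCm38.p6).

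Counts were scaled by TMM. The 23592 genes that passed filterByExpr entered edgeR 4.0.16 under R 4.3.3 (quasi-likelihood test), with p-values adjusted by Benjamini-Hochberg and called at 0.05. CPM are TMM-scaled, and log2 CPM used a prior count of 2. Exact permutation tests (2-sided) ran over the 10 groupings of libraries, with intervals of fold changes at 95%. DESeq2 1.42.0 was an alternative. Depth gave a lowest count of 125 for the 10 genes, a counting error of 8.94%. In simulated data with 200 of 23592 genes changed 4-fold at the estimated dispersion, edgeR called 105 and 7 unchanged genes.

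The members and gene lists were chosen with earlier results of these data known. All 10 genes were named, with the 3 of smallest p in each pathway list, 4 defining endothelial markers and the 3 genes most like the gene of smallest p in each role. Alternatives covered scaling, filtering, DESeq2, the prior count, the replicate number as a block, the endothelial marker set and each library left out. Counting non-overlapping genes under other scalings was added after the data were examined. All per-sample columns were used.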

Additional observations from a re-analysis of the deposited data

How the results depend on the processing

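At an adjusted p of 0.05 edgeR called 0 genes over all libraries (1738 at an unadjusted p under 0.05) and the DESeq2 Wald test 40. When single libraries were left out the number of genes ranged from 0 to 4543 and that of the 10 genes from 0 to 1, both highest without UMBO replicate 1, where Angpt2 was called and where the lone UMBO library, the one that stands apart, is assumed to vary as the vehicle libraries do. Relative to endothelial markers, the groups did not overlap for 4 of the 10 genes over all libraries, against 51.5% of all genes. With single vehicle libraries left out this count was 4 to 6. It was 8 without UMBO replicate 1 and 5 without UMBO replicate 2, where the lone UMBO library has to clear the vehicle range. These 2 counts cannot be set beside the 4 of all libraries. The share of all genes was not computed with any library left out, so the counts there are no result about the 10 genes.

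The labels number replicates 1 and 2 in both groups, but nothing says that a number marks a shared litter or day. Deviations from the group means correlated at 0.453 and 0.760 for the 2 shared numbers. With 2 UMBO libraries their deviations are mirror images of each other. The 2 values are therefore not separate checks and cannot show that the numbers mark pairs. With the replicate number as a block edgeR called 2337 of the 23592 genes tested. Of the 10 genes it called 1, Angpt2 (adjusted p 0.0207, log2 fold change 1.18), which is about the same share. The count is therefore no result about the 10 genes. The vehicle library whose number has no UMBO partner is fitted exactly by its own block. The fold changes thus rest on the other libraries, with very little left to measure their scatter. In this fit the log2 fold change of Angpt1 was 0.060 in place of -0.028.

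Of 110 fold changes of the 10 genes under an alternative, 13 changed sign, all of them of Vegfb, Flt1, Angpt1 or Tek. Vegfb was -0.0018 with the size factors of DESeq2, -0.022 with no filter and -0.020 in DESeq2. Angpt1 was 0.071 with library size only and 0.0025 with the stricter filter. With each library left out, Vegfb ranged from -0.080 to 0.10, Flt1 from -0.013 to 0.23, Angpt1 from -0.48 to 0.30 and Tek from -0.48 to 0.55. Relative to endothelial markers the ranges were -0.17 to 0.060 for Kdr, -0.39 to 0.18 for Nrp1, -0.17 to 1.60 for Angpt2, -1.41 to -0.50 for Vegfc, -1.07 to -0.19 for Angpt1, -1.06 to 0.064 for Tek and -0.15 to 0.16 for Tie1, which was -0.14 with the 4 defining markers alone. The cause of these shifts was not tested. The number of genes whose groups did not overlap in CPM was 4 in the main scaling, where 11.5% of all genes were higher and 11.4% lower. It was 5 with library size only, which added Flt1, and 4 with the size factors of DESeq2, which had Vegfc in place of Nrp1. The share of all genes was not computed under these 2 scalings, so their counts are no result about the 10 genes.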
